A study of Rattus norvegicus with 7 samples.

Results

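Messenger RNA for 10 genes of acetylcholine signalling was followed in 2 regions of the rat brain: the 5 muscarinic receptors Chrm1 to Chrm5, the nicotinic receptor subunits Chrna4, Chrna7 and Chrnb2, the synthetic enzyme Chat and the degrading enzyme Ache. The genes were taken by name from the deposited expression tables, and all 10 were listed in both tables, among 15805 gene symbols that the tables shared. The samples were 4 libraries of hippocampus and 3 of hypothalamus. Every library came from a male Sprague Dawley rat, 2 months old when the diets began, that was given food containing DHA (docosahexaenoic acid, a long-chain omega-3 lipid of neuronal membranes) for 6 weeks. Chow-fed animals were not analysed here, so the diet was common to both groups and no effect of it was estimated. The question that the samples allow is how the transcript levels of these genes differ between the dissected regions, and how far they vary among libraries of 1 region.

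Acetylcholine is made from choline and acetyl-CoA by choline acetyltransferase (Chat), loaded into vesicles by Slc18a3 and cleared by acetylcholinesterase (Ache), after which choline is taken back up by Slc5a7. Muscarinic receptors are G protein-coupled: the M1, M3 and M5 receptors act through the Gq family and phospholipase C, and M2 and M4 act through the Gi family. Nicotinic receptors are pentameric ion channels. The alpha4 and beta2 subunits form the most common heteromeric receptor of the brain, and alpha7 forms homomers with high calcium permeability. The hippocampus receives most of its cholinergic fibres from the medial septum and diagonal band, whose cell bodies, and so most of whose Chat mRNA, lie outside it.

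Levels are FPKM, fragment counts divided by transcript length and by library size, so that genes can be set side by side. The authors deposited 1 table per tissue, and the tables may have been normalized separately. Tissue and table therefore cannot be told apart, and differences between tissues are described without a test. Each library was rescaled to the same total over the shared symbols, and a difference is the mean log2(value + 1) in hippocampus minus that in hypothalamus, a scale that understates the change of low genes. A gene counts here as above in 1 tissue if its lowest library there exceeds the highest library of the other tissue, and as called if the difference is also at least 2-fold. In dissected tissue, fewer cells of a type and less RNA per cell cannot be told apart.

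The labelled tissues were checked against marker genes. Summed FPKM over 7 hippocampal markers ran from 944 to 1333 in the hippocampal libraries and from 22.9 to 28.9 in the hypothalamic ones, and 5 of the 7 genes lay above in hippocampus. Slc17a7 made up most of the hippocampal sum, at 571 to 847 FPKM. Fibcd1 was listed at 0 throughout, and Spink8 was lower in hippocampus, at 0 to 0.329 FPKM beside 0.389 to 0.905 FPKM. Summed FPKM over 10 hypothalamic markers ran from 5981 to 8538 in hypothalamus and from 8.08 to 12.7 in hippocampus, where Oxt, Otp and Nr5a1 were listed at 0. Rows of the tables follow each chromosome in a run of plus-strand and a run of minus-strand genes, judged by the annotated strand of neighbouring rows. Replicate 1 of each tissue stood apart for some rows. Among symbols split over several loci, rows of at least 5 FPKM in the other libraries that lay among neighbours of the opposite strand fell below 0.1 of the lowest other library in replicate 1 in 172 of 291 cases (59.1%) in hippocampus and in 110 of 250 cases (44.0%) in hypothalamus. Rows among neighbours of their own strand did so in 6 of 499 cases (1.20%) and in 4 of 398 cases (1.01%). The main results are therefore also given without replicate 1.

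The promoters of 4 genes are shown, because Chrm1, Chrm3, Chrm4 and Ache carry the largest differences or the largest spread between libraries. Each is the stretch of 250 bases before the annotated start, from RefSeq on the rat assembly GRCr8, read 5′ to 3′ on the gene's own strand. Capitals mark GC boxes (GGGCGG), the usual sites of Sp1-family factors, E-boxes (CANNTG), the usual sites of basic helix-loop-helix factors, and TATA boxes (TATAAA), searched on both strands, with overlapping matches counted separately.
Chrm1 (chr1:214996109-214996358, plus strand): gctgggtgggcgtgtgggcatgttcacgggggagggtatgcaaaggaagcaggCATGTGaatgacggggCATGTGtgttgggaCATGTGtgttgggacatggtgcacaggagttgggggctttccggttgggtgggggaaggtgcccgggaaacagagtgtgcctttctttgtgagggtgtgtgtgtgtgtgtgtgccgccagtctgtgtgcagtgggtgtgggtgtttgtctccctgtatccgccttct
Chrm3 (chr17:64696677-64696926, plus strand): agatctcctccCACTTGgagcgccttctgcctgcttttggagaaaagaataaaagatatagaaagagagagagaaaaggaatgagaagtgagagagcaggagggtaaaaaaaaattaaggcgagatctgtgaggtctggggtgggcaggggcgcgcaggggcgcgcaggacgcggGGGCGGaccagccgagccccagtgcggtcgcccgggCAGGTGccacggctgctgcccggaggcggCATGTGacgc
Chrm4 (chr3:98348830-98349079, plus strand): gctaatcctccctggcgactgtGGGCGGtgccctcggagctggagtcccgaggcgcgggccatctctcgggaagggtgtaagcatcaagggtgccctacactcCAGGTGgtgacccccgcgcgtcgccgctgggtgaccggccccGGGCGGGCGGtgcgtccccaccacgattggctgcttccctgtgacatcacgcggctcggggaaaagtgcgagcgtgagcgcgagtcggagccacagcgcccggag
Ache (chr12:25050411-25050660, minus strand): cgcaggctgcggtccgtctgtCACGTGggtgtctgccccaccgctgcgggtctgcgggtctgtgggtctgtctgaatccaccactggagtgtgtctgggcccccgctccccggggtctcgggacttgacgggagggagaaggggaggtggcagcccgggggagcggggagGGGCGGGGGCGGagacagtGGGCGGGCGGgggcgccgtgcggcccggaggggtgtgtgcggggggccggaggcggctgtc
The Chrm1 stretch held no GC box and 3 E-boxes, with 58.8% G or C. The Chrm3 stretch held 1 GC box and 3 E-boxes at 60.0% G or C. Chrm4 had 3 GC boxes and 1 E-box at 70.4%, and Ache had 4 GC boxes and 1 E-box at 75.6%. Over 33469 promoters of the same length, 30.5% held a GC box, 65.5% an E-box and 12.9% a TATA box, and the median was 51.2% G or C. None of the 9 member promoters in the table held TATAAA. Of the others, Chrna4 had 3 GC boxes at 74.4% G or C, Chrna7, Chrnb2 and Chrm2 had 1 each, and Chat had none. Chrm5 had no entry. A match describes letters and not a site in use.

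Of the 10 genes, 9 reached a mean of 1 FPKM in at least 1 tissue and were compared, Chrm2 being the exception. Chrm3, Chrnb2 and Chat lay above in hippocampus, Chrna4 and Ache lay above in hypothalamus, and the other 4 overlapped. In all, 5 of 9 did not overlap, against a background of 52.6% of 10736 symbols. By direction this was 3 of 9 above in hippocampus, against 28.2%, and 2 of 9 above in hypothalamus, against 24.4%. With the 2-fold requirement, 2 of 9 were called (background 27.9%), 1 in each direction, Chrm3 in hippocampus (background 14.5%) and Ache in hypothalamus (background 13.4%). The median difference over the 9 genes was 0.44 on the log2 scale, beside 0.05 over all symbols compared. These shares are close to the background and single out nothing about the group as a whole. Without replicate 1 of both tissues, 8 of 9 did not overlap (background 74%), 5 above in hippocampus (background 40.9%) and 3 in hypothalamus (background 33.2%). Of the 9, 4 were then called (background 34.1%), 2 in each direction (backgrounds 18.1% and 15.9%). The differences of Chrna4, Chrnb2, Chat and Ache changed little without those libraries, to -0.49, 0.54, 0.97 and -1.24.

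**Figure D1:**
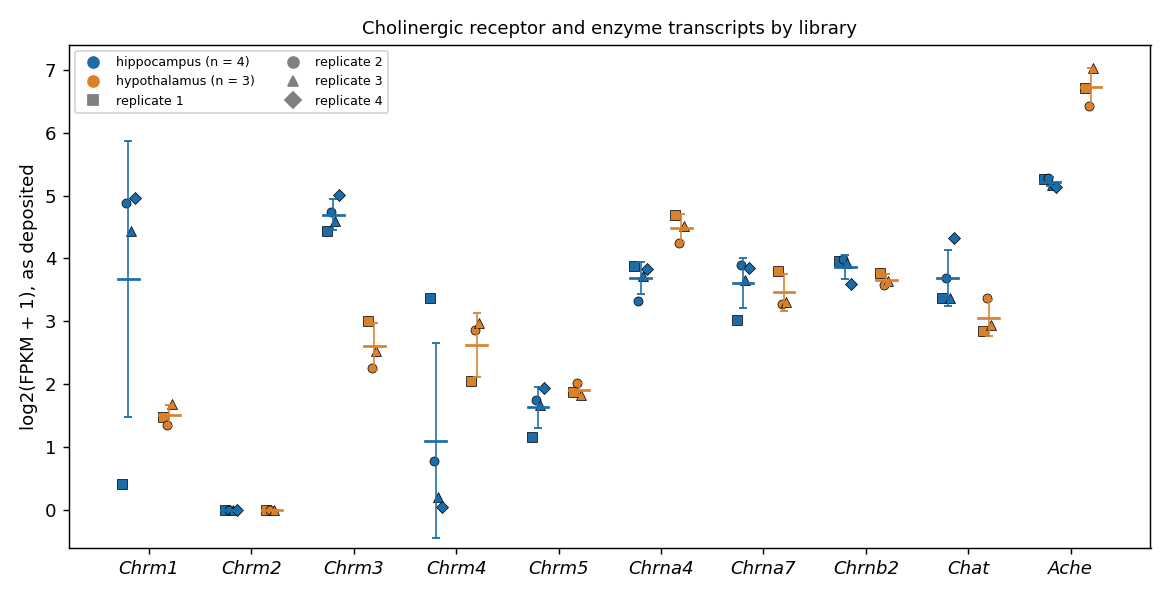
Level of each of the 10 transcripts in every library as log2(FPKM + 1) of the deposited values (vertical axis), with hippocampus (n = 4) in blue and hypothalamus (n = 3) in orange. Marker shapes give the replicate number, horizontal bars the mean and whiskers 1 SD; the square of hippocampal replicate 1 lies far below the other hippocampal libraries for Chrm1 and far above them for Chrm4.

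Chrm1 encodes M1, the main Gq-coupled muscarinic receptor of forebrain pyramidal neurons. Its level in the 4 hippocampal libraries, replicates 1 to 4, was 0.325, 28.6, 20.7 and 30.0 FPKM (19.9 ± 13.7, SD, n = 4). In the 3 hypothalamic libraries it was 1.78, 1.56 and 2.22 FPKM (1.85 ± 0.336, SD, n = 3). Hippocampal replicates 2 to 4 were all far over the hypothalamic libraries, and hippocampal replicate 1 was below every one of them. The tissues thus overlapped, at a log2 difference of 2.52. Leaving out replicate 1 of both tissues gave 3.83 and the libraries no longer overlapped.

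The Chrm1 rows of the tables also differed in their place. In the hippocampal table the row lay between Slc22a25 and Slc3a2, where 95% of 20 neighbours with a known strand are annotated on the minus strand. In the hypothalamic table it lay between Slc22a6 and Wdr74, where 100% of 16 neighbours are on the plus strand, which is the strand of Chrm1 in RefSeq. Chrm1 had 1 row in each table and no overlapping gene in RefSeq. Across the tables, 97.1% and 97.0% of single-row symbols that could be placed lay among neighbours of their own strand, so the hippocampal row of Chrm1 belongs to a small minority. Whether its place bears on the value in replicate 1 was not tested. Among hippocampal single-row symbols of at least 5 FPKM in the other libraries, 10 of 6248 fell below 0.1 of the lowest other library in replicate 1, and Chrm1 was 1 of them. Of those 10, 3 were among 83 rows with neighbours of the opposite strand (3.61%), 2 among 3899 rows with neighbours of their own (0.0513%), and 5 could not be placed.

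Chrm3 encodes M3, a second Gq-coupled receptor. It stood at 20.7, 25.6, 23.2 and 31.3 FPKM in hippocampus (25.2 ± 4.57, SD, n = 4) and at 7.02, 3.80 and 4.78 FPKM in hypothalamus (5.20 ± 1.65, SD, n = 3). The lowest hippocampal library was over the highest hypothalamic one by a wide margin. The difference was 2.50 on the log2 scale, a ratio of 5.67 on that scale, with SDs of 0.24 in hippocampus and 0.42 in hypothalamus. It lay above in hippocampus under all 5 scalings tried, with differences from 2.10 to 2.63, and was 2.82 without replicate 1 of both tissues. Of the 5 muscarinic receptors, Chrm3 was the 1 whose hippocampal and hypothalamic libraries did not overlap when all libraries were kept. Its promoter, printed above, shares with that of Chrm1 a count of 3 E-boxes.

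Chrm4 encodes M4, the Gi-coupled receptor that is abundant in striatal projection neurons. It was at 9.38, 0.707, 0.152 and 0.0351 FPKM in hippocampus (2.57 ± 4.55, SD, n = 4) and at 3.13, 6.28 and 6.88 FPKM in hypothalamus (5.43 ± 2.02, SD, n = 3). Hippocampal replicate 1 had the highest level of all 7 libraries, while the other 3 hippocampal libraries were the lowest. The difference was -1.94 with overlap, and -3.27, with the hypothalamus above, when replicate 1 of both tissues was left out. Replicate 1 was thus lowest in hippocampus for Chrm1 and highest for Chrm4. Only 5 of 6599 hippocampal single-row symbols of at least 5 FPKM in replicate 1 exceeded 10 times the highest other library there, and Chrm4 was among them.

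In RefSeq, Chrm4 overlaps Mdk, which encodes the growth factor midkine. Mdk was at 83.6, 11.4, 99.5 and 36.4 FPKM in hippocampus and at 59.5, 67.6 and 70.1 FPKM in hypothalamus. It was as high in hippocampal replicate 3, where Chrm4 was near 0, as in replicate 1, so the libraries did not rank alike for both genes. Summed FPKM over 8 striatal markers was 65.8, 57.4, 64.2 and 58.3 in hippocampus and 72.1, 134 and 133 in hypothalamus. Of those markers 3 lay above in hypothalamus (24.4% of all symbols) and 2 in hippocampus (28.2%), and none was at 0 in all libraries of a tissue. Hippocampal replicate 1 had the highest sum in hippocampus, and Drd2, Adora2a, Ppp1r1b and Gpr6 were highest there, as Chrm4 was. Drd2 stood at 1.33 FPKM in it beside 0.581 to 0.811 FPKM in the other hippocampal libraries, and Gpr6 at 1.22 FPKM beside 0.423 to 0.620 FPKM. In hypothalamus, replicate 1 was the lowest library both for that sum and for Chrm4. The part of striatal tissue in the Chrm4 levels was not tested.

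Chrm5 encodes M5, the receptor known from midbrain dopamine neurons. Its hippocampal levels were 1.24, 2.35, 2.19 and 2.83 FPKM (2.15 ± 0.662, SD, n = 4) and its hypothalamic levels 2.68, 3.07 and 2.54 FPKM (2.76 ± 0.274, SD, n = 3). The tissues overlapped at a difference of -0.09, which ran from -0.28 to 0.00 over the scalings. RefSeq has Chrm5 overlapping Aven. Chrm2, which encodes M2, the Gi-coupled autoreceptor of cholinergic terminals, was listed at 0 in all 7 libraries. Without counts, a listed 0 cannot be told from a level that was not estimated: the marker Col1a2 was listed at 0 in every library too.

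Within a library, the muscarinic transcripts can be expressed as shares of their summed FPKM, which no scale factor touches. Chrm1 made up 1.03, 50.0, 44.8 and 46.7% of the sum in hippocampal replicates 1 to 4, and 12.2, 10.6 and 13.5% in the hypothalamic libraries. Chrm3 made up 65.4, 44.7, 50.1 and 48.8% in hippocampus and 48.1, 25.9 and 29.1% in hypothalamus. In hippocampal replicates 2 to 4, Chrm1 and Chrm3 together filled nearly the whole sum. The share of Chrm4 was 29.7, 1.23, 0.328 and 0.0547% in hippocampus and 21.4, 42.7 and 41.9% in hypothalamus. Chrm5 held 3.94 to 4.74% in hippocampus and 15.4 to 20.9% in hypothalamus, without overlap. The Chrm5 levels themselves overlapped, and the muscarinic sum was 31.6, 57.3, 46.2 and 64.2 FPKM in hippocampus and 14.6, 14.7 and 16.4 FPKM in hypothalamus. The hypothalamic sum was lower and spread over 4 receptors, with Chrm4 the largest in replicates 2 and 3 and Chrm3 in replicate 1.

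**Figure D2:**
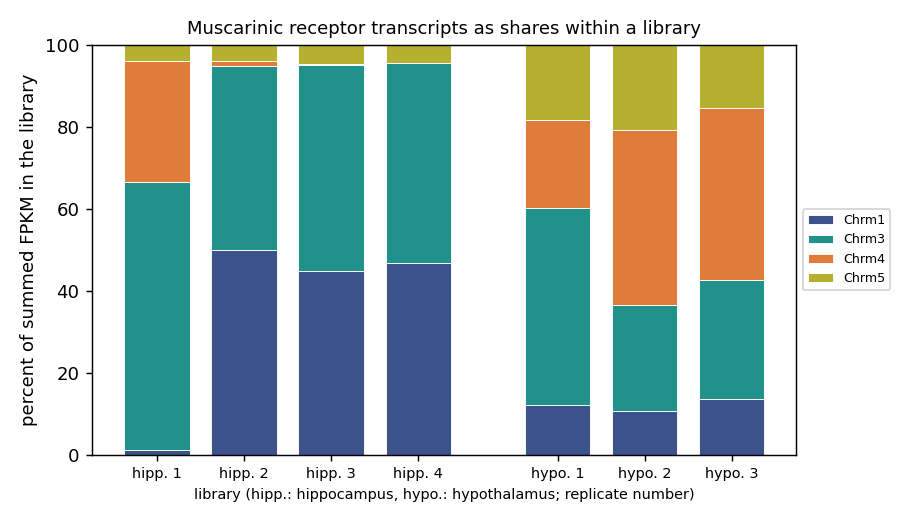
Percent of the summed FPKM of Chrm1 to Chrm5 (vertical axis, 0 to 100) held by each receptor in each of the 4 hippocampal and 3 hypothalamic libraries (horizontal axis); Chrm2 was listed at 0 and has no segment. Chrm1 and Chrm3 fill most of hippocampal replicates 2 to 4, Chrm4 takes 29.7% of hippocampal replicate 1, and Chrm5 takes a larger share in every hypothalamic library than in any hippocampal one.

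Of the nicotinic genes, Chrna4 encodes alpha4, the agonist-binding subunit of the heteromeric receptor. Its levels were 13.7, 8.99, 12.2 and 13.2 FPKM in hippocampus (12.02 ± 2.11, SD, n = 4) and 24.9, 18.0 and 21.9 FPKM in hypothalamus (21.6 ± 3.45, SD, n = 3). Every hypothalamic library lay over every hippocampal one, at a difference of -0.54 on the log2 scale and from -0.80 to -0.43 over the 5 scalings, each without overlap. In RefSeq Chrna4 overlaps Col20a1.

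Chrnb2 encodes beta2, the usual partner of alpha4. It stood at 14.5, 14.9, 14.2 and 11.0 FPKM in hippocampus (13.7 ± 1.79, SD, n = 4) and at 12.6, 10.9 and 11.4 FPKM in hypothalamus (11.7 ± 0.891, SD, n = 3). As deposited the tissues overlapped through hippocampal replicate 4. After rescaling they did not, with hippocampus at 31.6 to 42.3 and hypothalamus at 25.7 to 30.1 per 1000000, at a difference of 0.51. Hippocampus lay above under 3 of the 5 scalings, and the tissues overlapped as deposited and with upper quartile scaling, so the non-overlap of Chrnb2 rests on the scale chosen.

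The ratio of Chrna4 to Chrnb2 within a library needs no scale. It was 0.940, 0.602, 0.857 and 1.20 in hippocampus (0.900 ± 0.246, SD, n = 4) and 1.97, 1.65 and 1.91 in hypothalamus (1.84 ± 0.170, SD, n = 3). All hypothalamic ratios were over all hippocampal ones, so alpha4 mRNA exceeded beta2 mRNA in each hypothalamic library and in 1 of 4 hippocampal libraries.

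Chrna7 encodes alpha7, the subunit of the homomeric receptor, which is prominent on hippocampal interneurons. Its levels were 7.15, 13.8, 11.6 and 13.5 FPKM in hippocampus (11.5 ± 3.07, SD, n = 4) and 13.0, 8.67 and 8.94 FPKM in hypothalamus (10.2 ± 2.40, SD, n = 3). Replicate 1 was the lowest hippocampal library and the highest hypothalamic one, and the tissues overlapped at a difference of 0.44. Without both, hippocampus lay above at 0.83. As shares of the summed FPKM of 11 neuronal subunits, Chrna4 held 20.8 to 33.7% in hippocampus and 42.1 to 47.8% in hypothalamus, Chrnb2 held 24.7 to 35.8% and 22.9 to 25.5%, and Chrna7 held 17.6 to 31.9% and 19.5 to 23.4%. Of these, the Chrna4 share did not overlap between the tissues. The nicotinic sum, at 40.6 to 44.8 FPKM in hippocampus and 42.7 to 55.3 FPKM in hypothalamus, did.

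**Figure D3:**
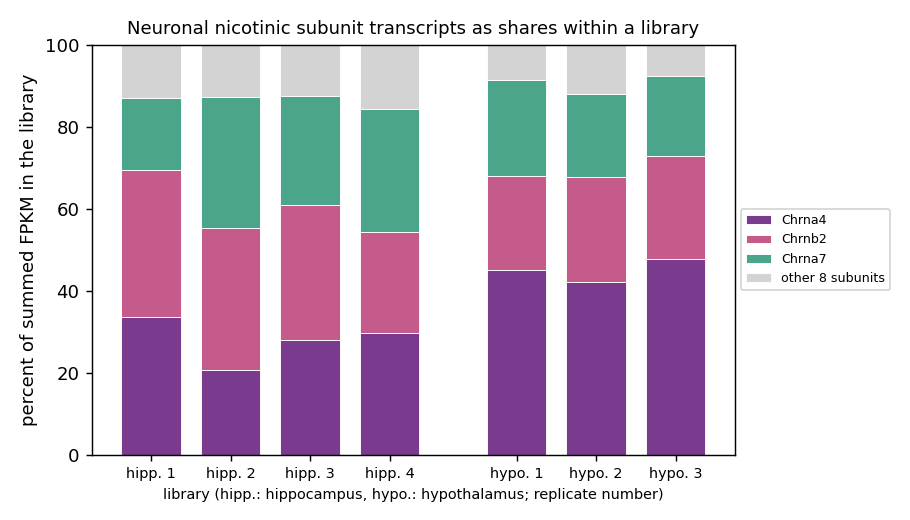
Percent of the summed FPKM of 11 neuronal nicotinic subunits (vertical axis, 0 to 100) held by Chrna4, Chrnb2, Chrna7 and the other 8 subunits in each library (horizontal axis). Chrna4 takes 42.1 to 47.8% in the 3 hypothalamic libraries and 20.8 to 33.7% in the 4 hippocampal ones.

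Chat, the enzyme that defines cholinergic neurons, was listed at 3 loci in each table, and the account of it depended on the locus. At the locus with the highest mean, which the rule selects, levels were 9.36, 11.9, 9.38 and 19.1 FPKM in hippocampus (12.4 ± 4.58, SD, n = 4) and 6.18, 9.35 and 6.67 FPKM in hypothalamus (7.40 ± 1.71, SD, n = 3). Hippocampus lay above after rescaling at a difference of 0.96, and did so under all 5 scalings. As deposited the non-overlap of this row was close to a tie. Its lowest hippocampal library was at 9.364 FPKM and its highest hypothalamic one at 9.351 FPKM. This row stands between another Chat row and Mir23b, among neighbours of mixed strand (63.2% minus in the hippocampal table and 61.1% in the hypothalamic one). The row before it was at 0.462 to 0.986 FPKM in hippocampus and 1.90 to 2.38 FPKM in hypothalamus.

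The Chat row of the lowest level lies in the run of minus-strand genes that also holds Slc18a3, the vesicular acetylcholine transporter, whose gene sits inside the Chat gene and which RefSeq places on the same strand. There Chat was at 0.0885, 0.0224, 0.0961 and 0.0580 FPKM in hippocampus and at 0.977, 0.216 and 0.171 FPKM in hypothalamus. At this locus the order of the tissues was the opposite, with hypothalamus above at a difference of -0.69. The choice of this locus was made after seeing the data.

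The other genes of cholinergic neurons followed the order of this low row. Slc18a3 was at 0.284, 0.170, 0.216 and 0.0368 FPKM in hippocampus and at 1.94, 1.09 and 0.984 FPKM in hypothalamus, above in hypothalamus at -1.44. Slc5a7, the choline transporter of cholinergic terminals, was at 0.261, 0.266, 0.594 and 0.326 FPKM in hippocampus and at 3.50, 0.807 and 1.27 FPKM in hypothalamus, above in hypothalamus at -1.23. Without hypothalamic replicate 1 the Slc5a7 difference was -0.74, and without replicate 1 of both tissues -0.68, still above in hypothalamus but short of 2-fold. The only Slc5a7 row lies in a plus-strand run in both tables (90.5% and 89.5% plus), although RefSeq places the gene on the minus strand. Hypothalamic replicate 1 was the highest of the 7 libraries for Slc18a3, Slc5a7 and the Chat row beside Slc18a3, and the lowest for the Chat row of the highest mean. Lhx8, a transcription factor of basal forebrain cholinergic neurons, was highest in that library too, at 3.55 FPKM beside 0.298 and 0.953 in the other hypothalamic libraries and at most 0.0786 in hippocampus. Of the other markers of those neurons, Gbx1 was highest in that library as well, and Isl1 and Ngfr were not. Among the hypothalamic libraries Isl1 was lowest in replicate 1, at 8.91 FPKM beside 10.6 and 10.6 FPKM, and Ngfr was highest in replicate 3, at 3.10 FPKM beside 2.46 FPKM in replicate 1.

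Of 8 markers of basal forebrain cholinergic neurons, 6 lay above in hypothalamus (24.4% of all symbols), and the 1 that lay above in hippocampus (28.2%) was Chat at its highest row. Summed FPKM over the 8 was 14.4 to 22.6 in hippocampus and 25.9 to 30.8 in hypothalamus, and none was at 0 in all libraries of a tissue. What transcript the highest Chat row measures was not tested.

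**Figure D4:**
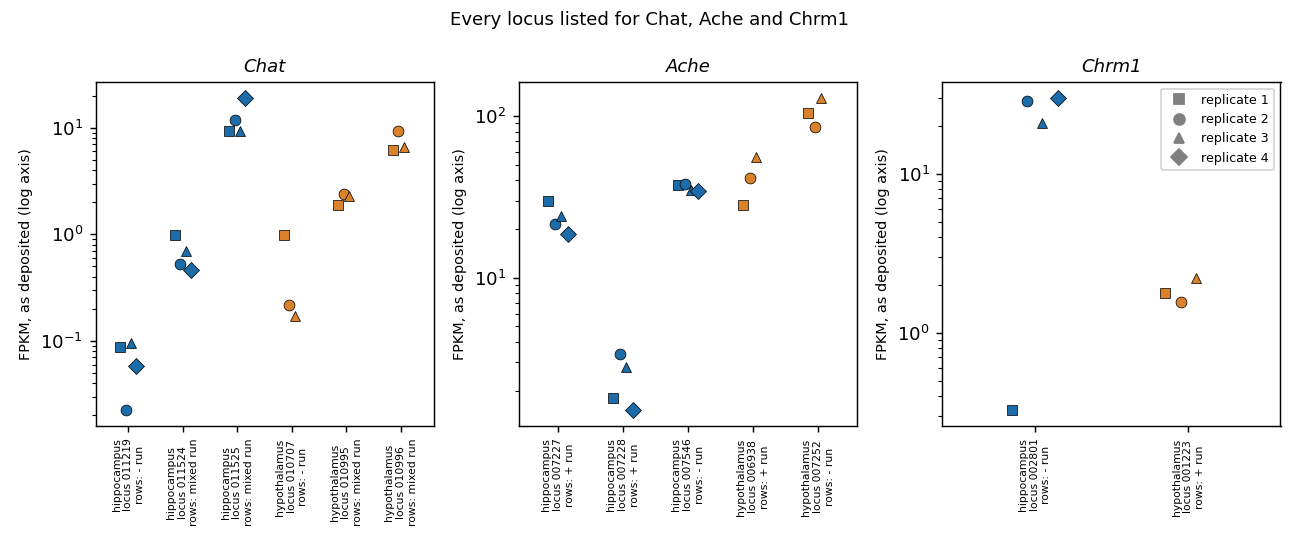
FPKM as deposited (logarithmic vertical axis) at every locus listed for Chat, Ache and Chrm1 (horizontal axis, with the strand of the neighbouring rows), hippocampus in blue and hypothalamus in orange, replicate by marker shape. The lowest Chat locus, in the minus-strand run, is higher in hypothalamus while the highest Chat locus is higher in hippocampus, and the Chrm1 rows lie in runs of opposite strand.

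Ache had the highest level of the 10 genes in every library. At its main row, which lies among minus-strand neighbours as does the gene, it stood at 37.5, 38.0, 35.0 and 34.3 FPKM in hippocampus (36.2 ± 1.84, SD, n = 4) and at 104, 85.2 and 129 FPKM in hypothalamus (106 ± 22.2, SD, n = 3). The hippocampal libraries were the closest to each other of any member above 0, with an SD of 0.07 on the rescaled log2 scale, and the lowest hypothalamic library was over all of them. The difference was -1.23, a ratio of 2.34 on that scale, with hypothalamus above under all 5 scalings at -1.51 to -1.12.

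Ache had a further row among plus-strand neighbours, at 29.9, 21.6, 24.2 and 18.6 FPKM in hippocampus and at 28.2, 41.6 and 55.8 FPKM in hypothalamus, where the tissues overlapped. A hippocampal row beside it held 1.52 to 3.38 FPKM. Summing the rows brought the difference to -0.97, still with hypothalamus above but short of 2-fold. RefSeq has Ufsp1 and a long noncoding RNA overlapping Ache, and whether reads of these entered either row was not tested. Bche, which encodes butyrylcholinesterase, the other choline ester hydrolase, lay above in hypothalamus as well, at 2.65 to 3.64 FPKM beside 0.521 to 1.51 FPKM in hippocampus. The rows lie at different places: the hypothalamic one stands between Slitrk3 and Schip1 in the minus-strand run, the strand of Bche, and the hippocampal one between Vom1r56 and Serpini1 in the plus-strand run. The hippocampal Bche row between Slitrk3 and Schip1 held 0.728 to 0.970 FPKM, also under every hypothalamic library. The Bche difference was -1.04, and -0.69 without replicate 1 of both tissues. With the hippocampal rows of Bche summed the tissues overlapped, at a difference of -0.36.

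Ordered by mean FPKM, the hippocampal levels ran Ache, Chrm3, Chrm1, Chrnb2, Chat, Chrna4, Chrna7, Chrm4, Chrm5 and Chrm2. Only Ache and Chrm3, and Chrm5 and Chrm2, were neighbours whose ranges did not overlap, so the middle of this order cannot be resolved with 4 libraries. In hypothalamus the order was Ache, Chrna4, Chrnb2, Chrna7, Chat, Chrm4, Chrm3, Chrm5, Chrm1 and Chrm2. Ache lay over Chrna4, Chrna4 over Chrnb2, Chrm3 over Chrm5, Chrm5 over Chrm1 and Chrm1 over Chrm2 without overlap, and the neighbours from Chrnb2 to Chrm3 were not separated. The receptor with the highest mean was Chrm3 in hippocampus and, as a subunit, Chrna4 in hypothalamus. In hippocampus Chrm3 was not separated from Chrm1: without replicate 1 their means were 26.7 and 26.5 FPKM.

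**Figure D5:**
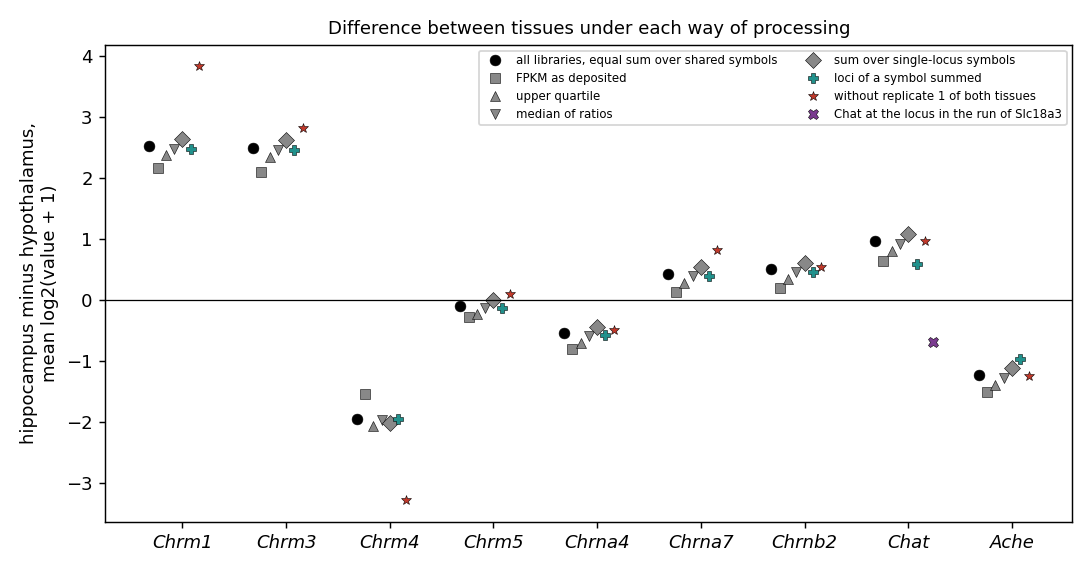
Difference between tissues, mean log2(value + 1) of hippocampus minus hypothalamus (vertical axis), for the 9 compared genes (horizontal axis) under each way of processing; values over 0 are higher in hippocampus. Chrm1 and Chrm4 move farthest when replicate 1 of both tissues is left out (to 3.83 and -3.27), and Chat changes sign, to -0.69, at the locus in the run of Slc18a3.

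The rest of the pathway was taken from 7 fixed lists holding 44 further genes, of which 40 were in both tables and 31 were compared. Of the 31, 12 lay above in hippocampus, 9 above in hypothalamus and 10 overlapped, with 10 and 8 called at 2-fold, and the median difference was -0.16. Over all symbols, 28.2% lay above in hippocampus and 24.4% in hypothalamus, and 14.5% and 13.4% were called. As deposited, without rescaling, 9 of the 31 lay above in hippocampus and 13 in hypothalamus, and the balance over all symbols turned likewise, with 2045 and 3774 of 10736. Without replicate 1 of both tissues it was 13 and 12, against 40.9% and 33.2% of all symbols. The list counts that follow are to be read against these shares.

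In the synthesis and vesicle list (8 compared), hypothalamus was above for Slc18a3, Slc5a7 and Chkb, a choline kinase, and hippocampus for Chat at its highest row, with 4 overlapping and a median difference of -0.19. Chkb was at 6.83 to 11.6 FPKM in hippocampus and 23.4 to 27.4 FPKM in hypothalamus. Slc44a1, a choline transporter-like protein of most cells, overlapped at 33.1 to 48.7 FPKM and 44.9 to 62.9 FPKM. In the breakdown list (3 of 4 compared), hypothalamus was above for Ache and Bche, and Prima1, the membrane anchor of acetylcholinesterase in brain, overlapped at 2.30 to 3.14 FPKM and 2.89 to 4.47 FPKM. The list's median difference was -1.04, and -0.69 without replicate 1 of both tissues.

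Among the neuronal nicotinic subunits (6 of 11 compared, median difference 0.47), Chrna2 and Chrna5 lay above in hippocampus beside Chrnb2. Chrna2, the subunit that marks oriens interneurons of the hippocampus, was at 1.66 to 3.02 FPKM in hippocampus and 0.298 to 0.432 FPKM in hypothalamus, a difference of 2.07. Chrna5, an accessory subunit of alpha4-beta2 receptors, was at 1.37 to 2.49 FPKM and 0.104 to 0.236 FPKM, a difference of 2.32. The size of these differences depends on the scale, though hippocampus stayed above: as deposited they were 1.30 for Chrna2 and 1.40 for Chrna5, with a pseudocount of 0.1 they were 2.85 and 3.67, and with a pseudocount of 5 they were 1.01 and 1.02. Both were below every hippocampal level of Chrna4 and Chrnb2. The muscarinic list (4 of 5 compared) had a median difference of 1.20, with 1 gene above in hippocampus, none in hypothalamus and 3 overlapping. Without replicate 1 of both tissues, 2 lay above in hippocampus and 1 in hypothalamus, at a median of 1.46. Of the muscle-type subunits, 2 of 5 were compared, with Chrnb1 above in hippocampus at 0.48 (overlapping as deposited, at 0.18, and with rows summed, at 0.13), Chrne overlapping and a median difference of -0.41. The Chrne overlap was narrow and depended on the scale. Hypothalamus lay above for Chrne as deposited (-1.14), with upper quartile scaling (-1.41), under another scaling (-1.32) and without replicate 1 of both tissues (-1.29). The Chrnb1 row used lies in a plus-strand run, opposite to the gene. Its row in the minus-strand run held 0.298 to 0.471 FPKM in hippocampus and 0.474 to 6.20 FPKM in hypothalamus.

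Of the receptor chaperones and modulators, 5 were compared with a median difference of -0.24. Ric3, a chaperone that promotes assembly of alpha7 receptors, lay above in hippocampus at 6.21, 20.3, 16.9 and 18.9 FPKM beside 3.05 to 6.11 FPKM in hypothalamus, a difference of 1.89. Its lowest hippocampal library was replicate 1, as for Chrna7. Tmem35 (NACHO), another alpha7 chaperone, was the other way round, at 28.0 to 44.3 FPKM in hippocampus and 95.5 to 108 FPKM in hypothalamus, a difference of -1.25. Ly6h, a GPI-anchored protein that limits surface alpha7, was higher in hypothalamus too, at 465 to 771 FPKM beside 141 to 175 FPKM. Chaperones of the same receptor thus lay above in different tissues. Lypd1 and Ly6e overlapped.

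In the muscarinic signalling list, 8 of 12 genes lay above in hippocampus (28.2% of all symbols) and 3 in hypothalamus (24.4%), with a median difference of 1.20. As deposited, without rescaling, it was 6 of 12, since Gnaq and Gnai1 then overlapped, while the count over all symbols fell from 3023 to 2045 of 10736. Of the Gq arm that M1 and M3 use, Gnaq was at 71.2 to 131 FPKM in hippocampus and 58.5 to 76.7 FPKM in hypothalamus as deposited (difference 0.95 after rescaling). Gna11 was at 51.4 to 79.5 FPKM and 19.8 to 33.4 FPKM (1.64), and Plcb1 at 31.3 to 66.5 FPKM and 12.6 to 18.2 FPKM (1.74). The phospholipases Plcb3 and Plcb4 lay above in hypothalamus, Plcb4 at 8.14 to 15.4 FPKM beside 2.93 to 3.97 FPKM. The phospholipase C-beta genes therefore divided between the tissues. Of the M-current channels that Gq-coupled muscarinic receptors close, Kcnq3 stood at 24.7 to 41.7 FPKM in hippocampus and 8.49 to 9.46 FPKM in hypothalamus, and Kcnq5 at 17.8 to 22.6 FPKM and 4.33 to 4.92 FPKM. Of the Gi arm that M2 and M4 use, Gnai1 and the GIRK channel genes Kcnj3 and Kcnj6 lay above in hippocampus and Gnai2 in hypothalamus, the last at 250 to 520 FPKM beside 89.6 to 147 FPKM. Rgs4, a brake on both arms, overlapped, though hypothalamus lay above as deposited (-1.06) and under 2 other scalings. With its hippocampal rows summed, the second of which held 2.27 to 56.3 FPKM, the Rgs4 difference was 0.15, with overlap. Summed FPKM over 5 general neuronal markers was 1148 to 2061 in hippocampus and 724 to 863 in hypothalamus. Of these markers, Nefl was at 0.174 FPKM in hippocampal replicate 1, the library of the lowest hippocampal sum, beside 174 to 288 FPKM in the other hippocampal libraries. The part of the neuronal sum in these differences was not tested.

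The genes whose profile over the 7 libraries was most like that of a member were named by the smallest root mean square difference of centred log2 levels, among 6937 or 6938 single-row symbols. For Chrm1 they were Gpr39 (0.69), Mybph (0.71) and Syce2 (0.75). Gpr39 stood at 0.0642, 13.8, 13.0 and 12.8 FPKM in hippocampus and at most 0.119 FPKM in hypothalamus, so that it too was near 0 in hippocampal replicate 1. Gpr39, Mybph and Syce2 were among the 10 hippocampal symbols that were low in replicate 1 alone. For Chrm4 the nearest was Kcnf1 (0.59), at 13.5, 1.02, 0.390 and 0.786 FPKM in hippocampus and 4.37 to 6.44 FPKM in hypothalamus, which shares the high replicate 1. For Chrm3 the nearest was RGD1566320 (0.14), for Chrm5 Papd4 (0.12), for Chrna4 Fhod3 (0.10), for Chrna7 Elp2 (0.09), for Chrnb2 Golga2 (0.05), for Chat St18 (0.16) and for Ache Nenf (0.10). The smallest difference was thus 0.59 or more for Chrm1 and Chrm4 and 0.16 or less for the 7 others.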

How the data were processed

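RNA-seq libraries (poly-A selected, random-primed, HiSeq 2000, per the labels' protocols) were deposited as FPKM values computed by the authors, 1 table per tissue. The submitters' processing notes name TopHat, TopHat2, Bowtie, Bowtie2, Cufflinks, Cuffdiff and build rn5; strand handling and annotation are not given in the sources used here. FPKM keep no depth, so depth is unknown and no counting interval is given. The summed FPKM per library was 370020 to 391349 in hippocampus and 443335 to 471484 in hypothalamus.

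From the deposited FPKM, loci without an OK status in every library of their tissue (86 and 24) were left out, the locus with the highest mean was taken per symbol, and libraries were rescaled to sum to 1000000 over the 15805 shared symbols. The comparison, with a pseudocount of 1, took the symbols whose mean reached 1 FPKM in either tissue. No test between tissues was run; an exact permutation test of 4 against 3 libraries could not go below 0.0571. Nothing in the labels says that replicates differ in batch. The strand of a row's surroundings was that of at least 80% of the single-row symbols within 15 rows on either side, by RefSeq (GRCr8). Named genes were the 10 members, any gene of the fixed pathway lists with at least 1 FPKM, and the 3 most like each member among symbols of at least 5 FPKM. Others named (Mdk, Col1a2, Chrna6, the single marker genes and the neighbouring rows) were chosen after their values were seen. Members and lists were chosen with earlier results of these data known. Alternatives covered scaling, pseudocount, filter, locus and left-out libraries. The comparison was tested on simulated data. Python 3.11.15, pandas 2.3.3 and numpy 2.4.6 were used.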

Additional observations from a re-analysis of the deposited data

Results flagged for a closer look

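Among 51 results in the 4 hippocampal libraries, 7 had 1 library whose gap to the nearest other, divided by the range of the 4, was over Dixon's 95% critical value, where chance gives about 2.55. Of these 7, 4 concerned replicate 1. The level of Chrm1 was low in replicate 1 (0.887), and so was its share of the muscarinic sum (0.895). The Chrm4 share was high in replicate 1 (0.960). Ric3 was low in replicate 1 (0.837), at 6.21 FPKM beside 16.9 to 20.3 FPKM. Replicate 4 was low for Chrnb2 (0.835), at 11.0 FPKM beside 14.2 to 14.9 FPKM, and for Gna11 (0.880), at 51.4 FPKM beside 75.5 to 79.5 FPKM. Chrnb3, a nicotinic subunit, was high in replicate 3 (0.937), at 0.532 FPKM beside 0.0138 to 0.0406 FPKM. Chrm1 and Chrm4 no longer overlapped between the tissues when replicate 1 was left out, and the non-overlap of Chrnb2 was narrowest at replicate 4. Their causes were not tested.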

How the results depend on the processing

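Of the called genes, Chrm3 stayed above in hippocampus and Ache above in hypothalamus under each scaling. Called in hippocampus, 1 member became 2 with scaling to single-row symbols, 2 with a pseudocount of 0.1 (Chat joining in both), 1 to 3 when 1 library was left out (3 without hippocampal replicate 1, with Chrm1 and Chat, and 2 without hippocampal replicate 3 or hypothalamic replicate 2, with Chat) and 2 without replicate 1 of both tissues. Called in hypothalamus, 1 became 0 with rows summed, 1 to 2 when 1 library was left out (2 without hippocampal replicate 1) and 2 without replicate 1 of both tissues (Chrm4 joining). Above in hippocampus, 3 became 3 to 5 when 1 library was left out (5 without hippocampal replicate 1, with Chrm1 and Chrna7) and 5 without replicate 1 of both tissues. At the Chat row near Slc18a3, a choice added after seeing the data, the Chat difference reversed to -0.69. Of the further pathway genes, 8 called in hypothalamus became 5 with a pseudocount of 5 (Slc18a3, Slc5a7 and Bche dropping out) and 5 with a minimum of 5 FPKM, where the 9 above in hypothalamus became 5 as well. The other 203 alternative values of these counts and of the shares stayed within the replicate spread or 1.5 times. The share of calls over all symbols that lay in hippocampus was 52.0% (1560 against 1439), 33.8% as deposited (928 against 1819), 41.5% with the upper quartile and 58.4% with single-row symbols. The median of all symbols was 0.05, and -0.21, -0.10 and 0.16 under those scalings, so the Chrnb2, Chrna7 and Chrm5 differences are within reach of the scale. Over the 5 scalings the difference ran from 0.21 to 0.62 for Chrnb2 and from 0.14 to 0.55 for Chrna7, without a change of sign. No paired analysis was possible because the tables were treated as separately normalized, no test was run between tissues, and the labels do not tie libraries of the same number to the same animal. Depth is unknown, and levels near 0, such as the Chat row near Slc18a3, have no known counting error.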

Other observations

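Markers of other cell types and regions were summed as FPKM per library. Thalamic and habenular genes (6 of 8 in both tables) came to 21.8 to 36.1 in hippocampus and to 62.9, 36.2 and 26.1 in hypothalamic replicates 1 to 3, with replicate 1 again the highest, as for Slc5a7 and Slc18a3. Neocortical genes came to 49.5 to 85.0 in hippocampus and 28.8 to 36.9 in hypothalamus. Oligodendrocyte genes came to 3632 to 4513 and 5110 to 6667, astrocyte genes to 1097 to 1268 and 956 to 1337, and microglial genes to 127 to 174 and 245 to 254. Endothelial genes came to 85.8 to 129 and 52.1 to 77.1, and skeletal muscle genes, which bear on the muscle-type subunits, to 5.88 to 9.06 and 10.9 to 13.5. Choroid plexus genes differed most between libraries, at 4712, 34.8, 5903 and 2048 in hippocampal replicates 1 to 4 and 13.4 to 49.4 in hypothalamus, and meningeal genes ran from 25.9 to 130 and from 30.9 to 156.

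Of the low Chrna6 and Chrnb3 subunits, known from midbrain dopamine and habenular neurons, Chrna6 was below the filter and Chrnb3 overlapped. Chrna6 was listed at 0, 0, 0.0473 and 0.0620 FPKM in hippocampus and stood at 1.14, 1.12 and 0.671 FPKM in hypothalamus. Its libraries did not overlap between the tissues, but its mean was under 1 FPKM in both, so it was not compared. Chrnb3 stood at 1.29, 1.85 and 0.204 FPKM in hypothalamus.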
